A study of Mus musculus with 14 samples.

Results

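The clustered protocadherins are cadherin-like adhesion proteins of the neuronal surface, encoded by the alpha, beta and gamma gene clusters that lie in tandem on mouse chromosome 18. Their members were taken as the protein-coding genes of GENCODE M21 (GRCm38) whose symbol begins with Pcdha, Pcdhb or Pcdhg. This gave 57 genes of 21755 protein-coding genes on chromosomes 1 to 19 and X: 14 in the alpha cluster, 22 in the beta cluster and 21 in the gamma cluster. The symbol Pcdha11 stands for 2 of these gene identifiers, ENSMUSG00000007440.10 and ENSMUSG00000102206.5, so that the 57 genes carry 56 symbols. All 57 lie on the plus strand.

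The question asked of these genes was how often the meiotic DNA double-strand breaks (DSBs) mapped by DMC1 fell at their starts in the presence and absence of HELLS, a chromatin remodeler that acts with PRDM9, the methyltransferase that designates recombination hotspots. DMC1 ChIP-SSDS immunoprecipitates the strand-exchange protein DMC1 and sequences the single-strand DNA bound to it at resected break ends. The *Hells* CTRL mice carried a floxed and a deleted *Hells* allele (Hellsfl/Δ), with no Cre transgene listed, and were 5 weeks old. The *Hells* cKO mice carried the same alleles with the Stra8-iCre transgene, whose Stra8 promoter is active in differentiating male germ cells, and were 9 weeks old. Both genotypes carried the Prdm9 Dom2 allele, and whole testes were used, with 2 testes per replicate for *Hells* CTRL and 3 for *Hells* cKO. The 2 replicates of each genotype were merged into 1 peak list by the authors, so differences between the genotypes have no replicate check, and age cannot be told apart from genotype. The study states that HELLS was still present in some of the *Hells* cKO spermatocytes. The 5hMeDIP libraries of the series were not analysed here, and the lists hold no expression values by which the tissue could be checked.

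In the alpha and gamma clusters, each gene begins with its own variable exon, which codes for the extracellular cadherin repeats, the membrane span and the start of the cytoplasmic tail, and which is spliced to constant exons shared by the whole cluster. Each beta gene is made of its own exon and has no shared part. In neurons, promoters of these variable exons are chosen largely at random in each cell, with CTCF, cohesin and DNA methylation taking part, whereas the C-type genes at the end of the alpha and gamma clusters are used more uniformly. Meiotic DSBs in the mouse are normally placed away from promoters by PRDM9, and in its absence they form at CpG-rich promoters and other open sites.

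The *Hells* CTRL list held 11133 peaks with strengths of 11 to 5547 (median 63), and the *Hells* cKO list 17117 peaks with strengths of 5 to 3299 (median 31). Strength is the authors' score for the DMC1 signal of a peak. As it could not be normalized between the genotypes, each peak is also given its percentile, its rank by strength within its own list as a percent, where peaks of equal strength share their mean rank. Of all peaks, 1129 were common to both lists. Confidence intervals are exact 95% Clopper-Pearson intervals, cover counting error only and treat genes as independent, although neighbors share a domain and paralogs share sequence.

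Nearly all clustered protocadherin starts lacked a DMC1 peak in *Hells* cKO mice. A *Hells* cKO peak center lay within 1 kb of a start of 2 of the 57 genes (3.51%, CI 0.428 to 12.1), where 45.6% of all protein-coding genes had such a peak. By cluster, 1 of 14 alpha genes (7.14%, CI 0.181 to 33.9), 0 of 22 beta genes (CI up to 15.4) and 1 of 21 gamma genes (4.76%, CI 0.121 to 23.8) had one. All 3 intervals end below the share of all protein-coding genes. No test of this difference was possible over mice.

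The count of 2 was the same at every reach tried, while the share of all genes rose with it. That share was 42.4% within 500 bp, 46.8% within 2 kb and 49.5% within 5 kb. The nearest *Hells* cKO peaks of most members lay far from their starts. The median member start was 74.6 kb from the nearest *Hells* cKO peak center, against 5.54 kb for all protein-coding genes. These distances are not a separate result, as genes with a peak at a start have short ones and neighboring members share their nearest peak. The beta genes lay farthest, at a median of 143 kb (46.9 to 208 kb). The medians of the alpha and gamma genes were 52.7 and 50.3 kb.

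Both *Hells* cKO peaks at member starts were weak within their list. The peak at Pcdha1, the first gene of the alpha cluster, lay at chr18:36929672-36931141 and had a strength of 7. Of the 17117 peaks of the list 10 were weaker, and with peaks of the same strength taken into account its percentile was 0.161. Its center fell in the Pcdha1 exon, 121 bp from the nearest annotated start, and 30 CpG dinucleotides lay within 250 bp of it. The peak at Pcdhgc3, the first C-type gene of the gamma cluster, lay at chr18:37805647-37807020 with a strength of 18 (percentile 25.2). Its center was 31 bp upstream of a Pcdhgc3 start and had 38 CpG dinucleotides within 250 bp. The 9303 *Hells* cKO peaks at protein-coding starts had a median strength of 45 (quartiles 25 and 91) and a median percentile of 64.9, whereas the percentiles of the Pcdha1 and Pcdhgc3 peaks average 12.7. At or above the median strength of the list, no member had a *Hells* cKO peak, as both peaks lay below it. The share of all protein-coding genes at this cut was not counted, so the cut does not set the members apart.

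In *Hells* CTRL mice, peaks at starts were rare for all genes, and the share of members with one within 1 kb was close to that of all genes. A *Hells* CTRL peak center lay within 1 kb of a start of 1 of the 57 genes (1.75%, CI 0.0444 to 9.39), against 2.70% of all protein-coding genes. The count stayed at 1 within 500 bp, 2 kb and 5 kb, where the shares of all genes were 1.71%, 4.58% and 9.48%. At 5 kb, a reach added after the data had been seen, the interval of the members ended just below the share of all genes. The member with a peak was Pcdhb12, in the middle of the beta cluster. Its peak lay at chr18:37434774-37436483 with a strength of 28 (percentile 19.2), and its center fell in the exon, 7 bp from the start, with 9 CpG dinucleotides within 250 bp. The *Hells* CTRL peaks at protein-coding starts had a median strength of 54. No member had a peak in both lists, and 54 of the 57 had a peak in neither. Of all 21755 protein-coding genes, 587 had a *Hells* CTRL peak, 9925 a *Hells* cKO peak and 444 both. With 57 genes, the absence of a member with both does not set the members apart.

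Over their whole length the clusters held 2 peaks of each list. In *Hells* cKO these were 1 in alpha, 0 in beta and 1 in gamma, where the density of the genome would give 1.72, 1.74 and 1.20. In *Hells* CTRL they were 0, 2 and 0, where it would give 1.12, 1.13 and 0.783. The beta cluster thus had 7.71 *Hells* CTRL peaks per Mb, above the 4.35 of the genome, and counts this small do not separate a cluster from the genome. The alpha cluster spans chr18:36930184-37187661 (257 kb), the beta cluster chr18:37264938-37524479 (260 kb) and the gamma cluster chr18:37661793-37841873 (180.1 kb). Besides the 2 *Hells* cKO peaks at starts, no other *Hells* cKO peak lay inside a cluster. The *Hells* CTRL list had 2 peaks in the beta cluster: that of Pcdhb12, and a second at chr18:37325503-37327124, outside exons, 5932 bp from the start of Pcdhb5 and 7608 bp from that of Pcdhb6, with a strength of 37 (percentile 30.1) and 1 CpG dinucleotide within 250 bp. No *Hells* CTRL peak lay in the alpha or gamma cluster. None of the peaks in the clusters was common to the lists. Over the genome, 1129 of the 17117 *Hells* cKO peaks and of the 11133 *Hells* CTRL peaks were. With 2 peaks per list, the absence of a common peak does not set the clusters apart.

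**Figure D1:**
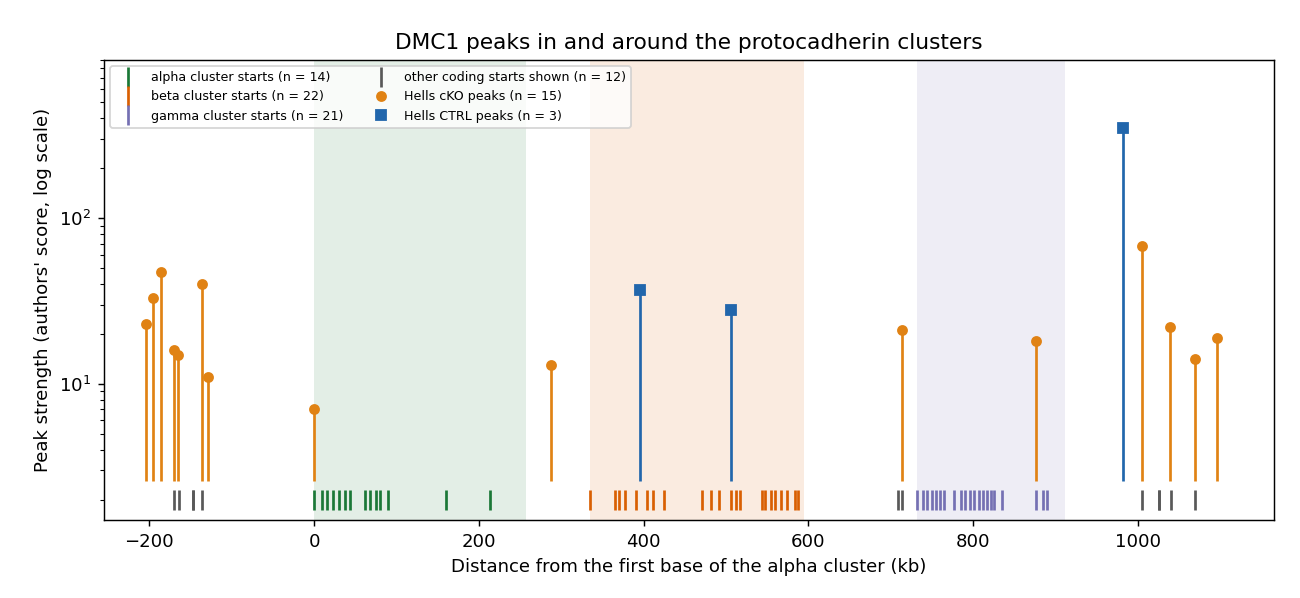
DMC1 peaks of *Hells* CTRL (blue squares) and *Hells* cKO (orange circles) from the alpha to the gamma cluster and in the flanks. The x axis is the distance from the first base of the alpha cluster in kb, the y axis the strength on a log scale, the shaded spans are the clusters, and ticks mark the starts of the 57 members and of 12 other coding genes in the flanks and gaps. The starts are dense, yet 2 *Hells* cKO and 2 *Hells* CTRL peaks fall within the shaded spans.

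The spaces between the clusters held the other *Hells* cKO peaks of the locus. In the 77.3 kb between alpha and beta, a peak of strength 13 (percentile 10.9) lay at chr18:37217456-37218677, 46872 bp before the start of Pcdhb1. In the 137 kb between beta and gamma, a peak of strength 21 (percentile 32.6) lay 153 bp from the start of Taf7, which codes for a subunit of the general transcription factor TFIID. The center of this peak was 17742 bp before the Pcdhga1 start and had 48 CpG dinucleotides within 250 bp. Over the 912 kb from the first alpha to the last gamma base, 4 *Hells* cKO peaks were found, or 4.39 per Mb against 6.69 per Mb genome-wide, which would give 6.10 peaks. The 2 *Hells* CTRL peaks were 2.19 per Mb, against 4.35 per Mb genome-wide, which would give 3.97.

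The protocadherin starts are packed closely, with a median distance between neighboring starts of 7.32 kb in alpha, 7.78 kb in beta and 5.35 kb in gamma. The intervals between adjacent *Hells* cKO peaks spanned many of these genes. Over the genome there were 17097 such intervals, with a median length of 59.4 kb. The interval from Pcdha1 to the peak before the beta cluster was 288 kb long and held the starts of 13 members, and that across the beta cluster to Taf7 was 426 kb long and held all 22 beta genes. The interval from Taf7 to Pcdhgc3 was 162 kb long and held 18 gamma genes. Ranked by how many coding starts with at least 10 CpG dinucleotides they held, the gamma interval (17 starts) ranked 6 of 17097 together with other intervals, the alpha interval (16 starts) ranked 9 and the beta interval (11 starts) ranked 25. These starts include some of genes that are not members: Taf7 in the gamma interval, readthrough models in the alpha interval and Slc25a2 in the beta interval. Ranked by all coding starts, the gamma (19 starts), alpha (16) and beta (23) intervals stood lower, at 60, 83 and 42. By length alone the beta, alpha and gamma intervals ranked 1322, 2113 and 3822. The ranks by starts are not a separate result, as they follow from the low count of peaks at member starts and the close spacing.

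**Figure D2:**
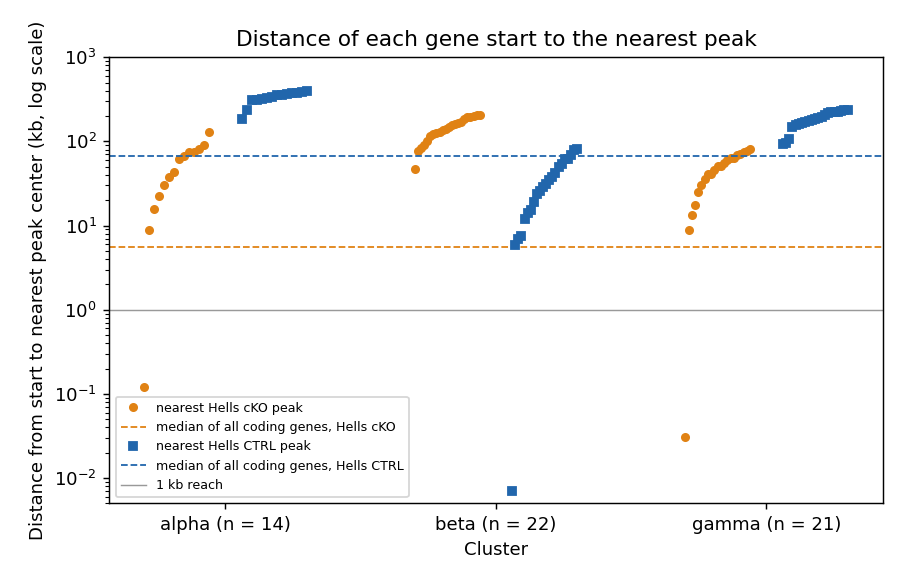
Distance from each member's start to the nearest peak center of each list, in kb on a log scale, by cluster. Each symbol is a gene (14 alpha, 22 beta and 21 gamma), dashed lines are the medians of all protein-coding genes (5.54 kb for *Hells* cKO and 66.1 kb for *Hells* CTRL), and only Pcdha1, Pcdhgc3 and Pcdhb12 fall below the 1 kb line.

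The distances to *Hells* CTRL peaks followed a different order of the clusters. The beta genes lay nearest, at a median of 30.1 kb (0.007 to 82.2 kb), owing to the pair of peaks in that cluster. The gamma genes had a median of 187 kb and the alpha genes of 343 kb, against 66.1 kb for all protein-coding genes. The strongest peak shown around the locus was a *Hells* CTRL peak of strength 348 (percentile 90.5) in the region of Diaph1, a formin that assembles actin, 92545 bp beyond the nearest start of Pcdhgc5. The nearest *Hells* cKO peak, of strength 68 at the start of Diaph1, was 23085 bp from it.

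*Hells* cKO peaks at starts were more frequent where CpG dinucleotides were dense, so the members were also described by this measure. Within 250 bp of the start, the 57 genes had a median of 13 CpG dinucleotides (1 to 36), against 24 for all protein-coding genes (quartiles 7 and 42). The alpha genes had a median of 17, the beta genes 9 and the gamma genes 16. The median GC content there was 43.9%, against 57.5% for all protein-coding genes. The highest counts were those of 3 C-type genes, with 36 at Pcdhgc3, 32 at Pcdhac2 and 30 at Pcdhac1. The other C-type genes, Pcdhgc4 and Pcdhgc5, had 16 and 7. The lowest counts were 1 at Pcdhga12 and 2 at Pcdhb22. By the median, the starts of the members were thus poorer in CpG than the typical start. At least 10 were found in 42 of the 57, and 30 or more in 3. Of all 21755 protein-coding genes, 2899 had 10 to 19, 2454 had 20 to 29 and 9514 had 30 or more. At the cut of 10 the members were therefore not poorer.

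The members were then set beside all genes of the same CpG class. The class is that of a gene's main start, whereas a peak within 1 kb of any of its starts counted. Of the 57 members, 20 had several starts. How far peaks at other starts raise the class shares was not tested. Of all protein-coding genes, 5.33% had a *Hells* cKO peak with 0 to 4 CpG dinucleotides at the start, 13.3% with 5 to 9, 34.1% with 10 to 19, 56.8% with 20 to 29 and 73.0% with 30 or more. In the same classes, 0 of 3, 0 of 12, 1 of 32, 0 of 7 and 1 of 3 members had one. In the class of 10 to 19, which held most members, the share was 3.13% (CI 0.0791 to 16.2), and the interval ended below the share of all genes of that class. In the class of 20 to 29 the interval also did (up to 41.0%). In the other 3 classes, of 3, 12 and 3 members, the interval included the class share. If each member had the share of its class, 18.8 of the 57 would have a peak (33.0%), where 2 did.

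**Figure D3:**
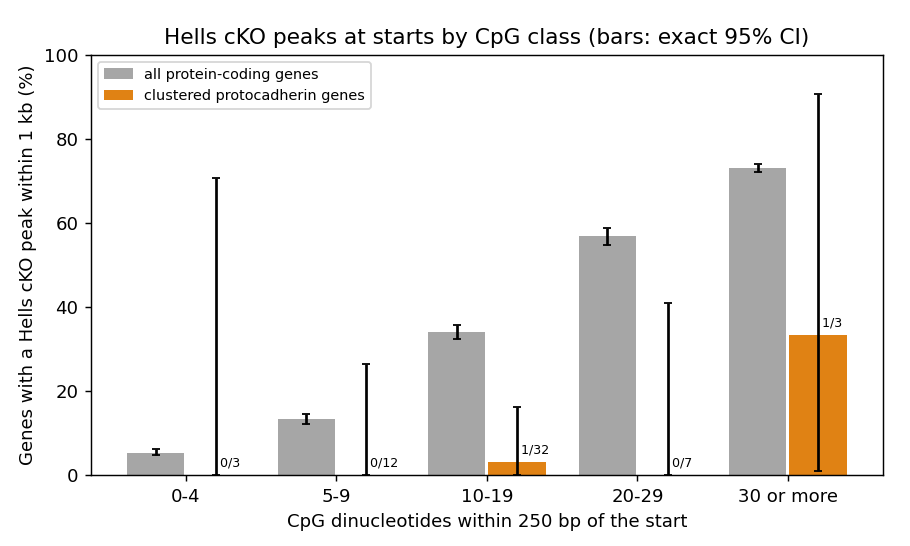
Percent of genes with a *Hells* cKO peak center within 1 kb of any of their starts. Gray is all protein-coding genes and orange the clustered protocadherin genes, with counts. Genes are classed by the CpG dinucleotides within 250 bp on each side of their main start. Error bars are exact 95% intervals. The gray bars climb from 5.33% to 73.0%, while the members have 1 of 32 at 10 to 19 and 0 of 7 at 20 to 29.

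The C-type genes, Pcdhac1, Pcdhac2, Pcdhgc3, Pcdhgc4 and Pcdhgc5, differ from the rest of their clusters in sequence and in the way they are used in neurons. Of these 5 genes, 1 had a *Hells* cKO peak (CI 0.505 to 71.6), and of the other 52 members 1 had one (1.92%, CI 0.0487 to 10.3). These intervals overlap, so a difference was not detectable with 5 genes. Pcdhac2 and Pcdhac1, with CpG counts close to that of Pcdhgc3, were 74563 and 128053 bp from the nearest *Hells* cKO peak. Pcdhgc4 and Pcdhgc5, which follow Pcdhgc3, had lower CpG counts (16 and 7). They were 8746 and 13180 bp from the nearest *Hells* cKO peak.

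CpG dinucleotides were also counted farther from the starts. Among windows of 501 bp centered between 1000 bp upstream and 3 kb downstream of a start, the richest window of each member held a median of 32 CpG dinucleotides, against 36 for all protein-coding genes, and at least 20 in all 57 genes. This window was downstream of the start in all 57, though the search reached farther downstream than upstream. The side of the window was not counted for all protein-coding genes. Of the 14303 protein-coding genes with at least 20 in such a window, 65.0% had a *Hells* cKO peak within 1 kb of a start. The richest window could lie beyond that 1 kb, and how often it did was not counted for these genes. The 65.0% is therefore not a matched share for the members. The place of the richest window followed the subfamily. In the 12 gamma A genes it lay a median of 250 bp from the start (200 to 1150 bp), with a median of 27 CpG dinucleotides. In the 6 gamma B genes it lay at 1900 bp (1850 to 1950 bp) and was the richest of the subfamilies, with a median of 48 (43 to 58). The 12 alpha genes other than C-type had it at 1525 bp (1400 to 1750 bp) with a median of 37, and the 22 beta genes at 1875 bp with a median of 28.5. The beta genes kept to a range of 1750 to 2350 bp except Pcdhb1, where it lay at 300 bp. The *Hells* cKO peak centers at Pcdha1 and Pcdhgc3 lay 222 bp downstream and 77 bp upstream of the main start, whereas the richest windows of these genes were centered 1600 and 800 bp downstream.

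**Figure D4:**
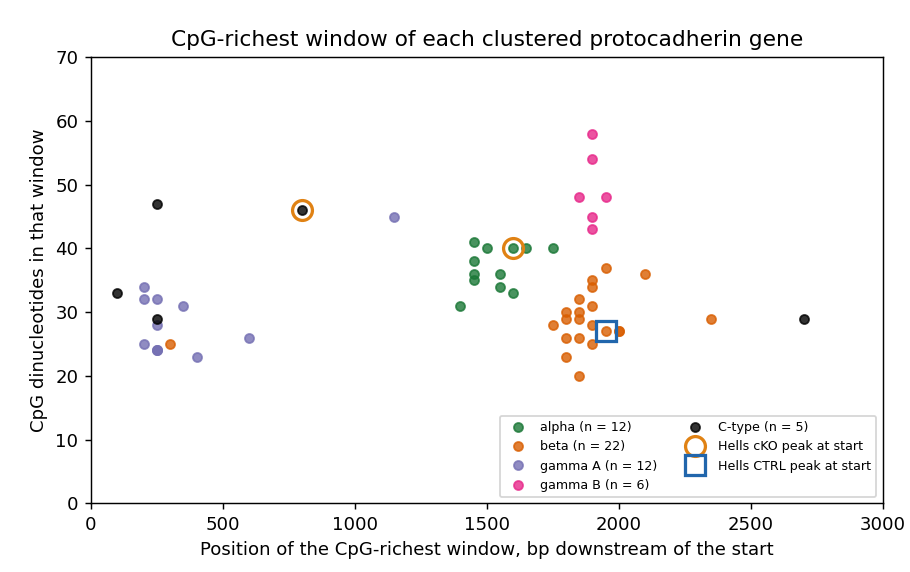
Position (x axis, bp downstream of the start) and CpG count (y axis) of the CpG-richest 501 bp window of each of the 57 members, colored by subfamily. Gamma B genes gather near 1900 bp with 43 to 58 CpG dinucleotides and gamma A genes mostly near 250 bp, and the rings and the square mark the genes with a *Hells* cKO or *Hells* CTRL peak at the start.

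The paralogs are alike in sequence, and only uniquely mapped reads entered the lists, so the uniqueness of the starts was measured as the share of 50-base words, up to 500 bp from the start, that occurred once in the genome on either strand. It was 100% at the median, 75% at the lowest, and 100% in 30 of the 57 genes. Of all 21755 protein-coding genes, 15847 had all words unique. The members were thus less unique, with a first quartile of 92.0% against 99.3% for all protein-coding genes. Uniqueness was lower in alpha, with a median of 85.0% (75% to 100%), than in beta (89.8% to 100%) and gamma (79.9% to 100%), both with a median of 100%. Of the 30 members with all words unique, 1 had a *Hells* cKO peak, where the shares of genes of the same CpG class with all words unique would give 9.35. In the class of 10 to 19, 0 of 14 such members had one (CI up to 23.2%), against 35.05% of such genes. In the class of 20 to 29 only 1 such member remained, without a peak. Its interval (up to 97.5%) included the 57.05% of such genes. In the other classes the interval also included the class share. Of the 4226 protein-coding genes with 75% or more but not all words unique, 35.8% had a *Hells* cKO peak. The part of mapping in the low count was not tested beyond these values.

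Of the genes beside the clusters, some had *Hells* cKO peaks and some did not. Of the 5 nearest protein-coding genes before Pcdha1, 3 had one, with strengths of 40 at Zmat2, 16 at Wdr55 and 15 at Dnd1, which codes for an RNA-binding protein of germ cells, and none was found at Hars and Hars2, the histidyl-tRNA synthetases. Of the 5 nearest beyond the gamma cluster, 3 had one, with strengths of 68 at Diaph1, 22 at Fchsd1 and 14 at Arap3, and none was found at Hdac3, a histone deacetylase, and Rell2. On each side the interval was 14.7 to 94.7%, which includes the 45.6% of all protein-coding genes. The median distance of these starts to the nearest *Hells* cKO peak was 0.624 kb on the alpha side and 0.395 kb on the gamma side. Of 5 other coding genes inside the locus, Taf7 alone had a peak. Slc25a2, a mitochondrial carrier beside it, and 3 readthrough models that begin in the alpha cluster and end in the gamma cluster did not.

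Among protocadherins outside the clusters, peaks were more frequent. Of 12 such genes, 5 had a *Hells* cKO peak (41.7%, CI 15.2 to 72.3), an interval that begins above the end of that of the clustered genes (12.1%). The strengths were 102 at Pcdh17, 35 at Pcdh15, which codes for the tip-link protein of inner ear hair cells, 34 at Pcdh9, 20 at Pcdh19 and 15 at Pcdh18. Pcdh12, an endothelial protocadherin on chromosome 18, had a *Hells* CTRL peak of strength 222 at 38 bp and no *Hells* cKO peak. These starts were richer in CpG (median 29) than those of the clustered genes. Both intervals treat genes as independent, although the clustered genes are neighbors, so setting them side by side is not a test.

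The Hox clusters, whose genes code for transcription factors of the body axis, are other arrays of developmental genes. Of 39 Hox genes, 4 had a *Hells* cKO peak (10.3%, CI 2.87 to 24.2), although their starts had a median of 26 CpG dinucleotides. Their strengths were 69 at Hoxd8, 36 at Hoxa4, 19 at Hoxa13 and 12 at Hoxd13. The intervals of the Hox and clustered protocadherin genes overlap, and both end below 45.6%. No Hox gene had a *Hells* CTRL peak within 1 kb (CI up to 9.025%). This interval includes the 2.70% of all protein-coding genes, so the absence does not set the Hox genes apart.

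Genes that act on the clusters or with their products were listed as well. Of 12 regulators of the clusters, 11 had a *Hells* cKO peak (91.7%, CI 61.5 to 99.8), at starts with a median of 48 CpG dinucleotides. The interval lies above the 45.6% of all protein-coding genes and includes the 73.0% of those with 30 or more CpG dinucleotides. Among them were the cohesin genes Stag2 (strength 447), Smc3 (194), Rad21 (174), Stag1 (156) and Smc1a (49), the cohesin loader Nipbl (403) and the release factor Wapl (205). Ctcf, whose protein binds the promoters and enhancers of the clusters, had a strength of 64, the zinc finger gene Wiz 64, the H3K9 methyltransferase gene Setdb1 36 and Smchd1 137. Dnmt3b, the methyltransferase that methylates these promoters in the embryo, had none. Smchd1 also had a *Hells* CTRL peak of strength 32. Of 6 partners of the proteins, 4 had a *Hells* cKO peak (66.7%, CI 22.3 to 95.7), an interval that includes the share of all genes, with strengths of 100 at Wasf1, a subunit of the WAVE complex, 75 at Nlgn1, a neuroligin, and 69 at Ptk2 and 32 at Fyn, which code for tyrosine kinases. Ptk2b and Axin1 had none. Ptk2 also had a *Hells* CTRL peak of strength 233.

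**Figure D5:**
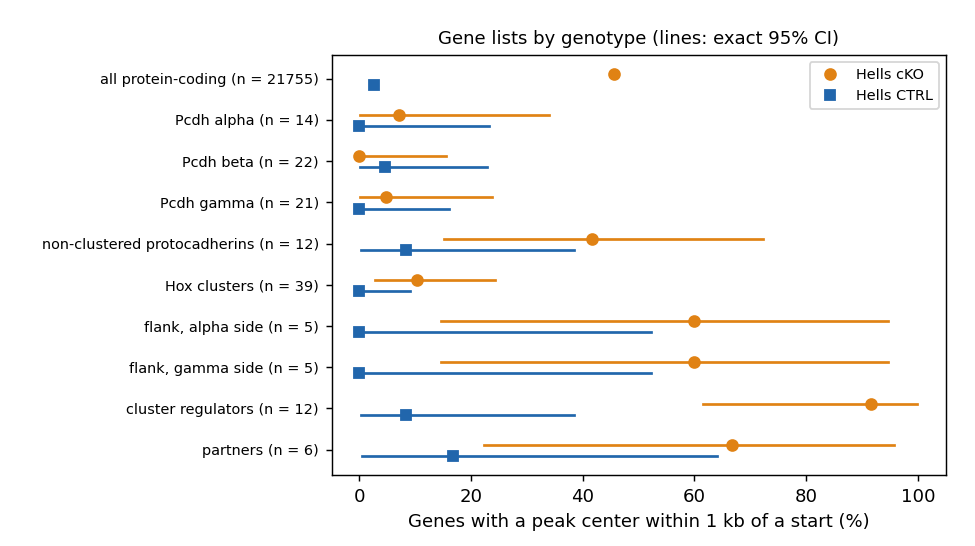
Percent of genes with a peak center within 1 kb of a start in *Hells* cKO (orange circles) and *Hells* CTRL (blue squares), with exact 95% intervals as lines. The 3 protocadherin clusters sit at 0 to 7.14% in *Hells* cKO, beside 10.3% for Hox genes, 41.7% for non-clustered protocadherins and 91.7% for the cluster regulators, with all protein-coding genes at 45.6%.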

How the data were processed

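DMC1 ChIP-SSDS peak lists of *Hells* CTRL and *Hells* cKO testes were used. The authors trimmed reads to 50 bp, required a Phred score over 28, mapped them to mm10 (GRCm38), kept unique non-duplicated reads, called peaks with MACS and selected them by the Irreproducible Discovery Rate, with both replicates merged. The deposited strength is the authors' score, by their methods the number of fragments at a peak after re-centering, scaled to local background and to library size. As all strengths were whole numbers, the second scaling may be missing, and the read depth behind them is unknown. The precision of counts is therefore given by exact 95% binomial intervals for counting error only.

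From these lists, the center of each peak was set against the transcript starts of GENCODE M21, with a reach of 1 kb. Peaks of both lists were common where their centers, each extended by 200 bp to either side, overlapped. CpG dinucleotides were counted within 250 bp of a gene's main start, and words of 50 bases within 500 bp, in GRCm38.p6. The lists of other genes were non-clustered protocadherins, regulators of the clusters, partners, Hox genes and neighbors. Members and lists were chosen with earlier results of these data known, and the 5 kb reach was added after the data had been seen. Named were all members with a peak, all peaks in and between the clusters, and the members of the lists with a peak. Genes named for extreme CpG counts, the peaks of the flanks, and the genes without a peak were chosen after their values were seen. With 1 list per genotype, no test over mice was possible. The alternatives were other reaches, coding transcripts only, peak intervals in place of centers, the stronger peaks of each list, extended clusters, autosomal ranks, other definitions of common peaks and wider windows. No sequences are printed. The code was tested on simulated lists. The software was Python 3.11.15 with scipy 1.17.1, pandas 2.3.3, numpy 2.4.6 and, for plots, matplotlib 3.10.9.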

Additional observations from a re-analysis of the deposited data

How the results depend on the processing

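The alternatives that kept the stronger peaks of each list, at or above its median strength, took all counts to 0: members with a *Hells* cKO peak fell from 2 to 0, members with a *Hells* CTRL peak from 1 to 0, *Hells* cKO peaks inside the clusters from 2 to 0 and *Hells* CTRL peaks inside them from 2 to 0. All of these peaks were weaker than the median of their list. The matching shares of all protein-coding genes and of the genome were not counted, so these falls do not set the members apart. Under the other alternatives run, these counts kept their value: the reaches of 500 bp, 2 kb and 5 kb (the last chosen after the data had been seen) and protein-coding transcripts only for the members, peak intervals in place of centers, and clusters extended by 10 kb for the peaks. The mean percentile of the *Hells* cKO peaks at member starts was 12.7 with all peaks and 12.8 when ranked among autosomal peaks, and the count of common peaks in the clusters stayed at 0 under both other definitions.

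No paired analysis was possible because the replicates of each genotype were merged into 1 list before deposit, and for the same reason leaving out a replicate was not possible. With 57 genes, of which 14 to 22 are in each cluster, a count of 0 leaves an interval of up to 15.4% in beta. The read depth is unknown, so a peak below the authors' threshold cannot be told apart from no break.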
